A study of Mus musculus with 4 samples.

Results

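CpG-dense accessible regions that lay away from the promoters of protein-coding genes were followed in primary osteoblasts with and without the TET enzymes. A region of the merged ATAC-seq count table was taken when it was at least 200 bp wide, had a GC content of at least 50% and a CpG observed/expected ratio of at least 0.6, and had its midpoint more than 5 kb from every start of a protein-coding transcript. The CpG observed/expected ratio is the number of CpG dinucleotides divided by the number that the C and G content of the region would give. These criteria were met by 1498 of 255864 regions, or 0.585%. They use only sequence and position, so the accessibility of the regions took no part in the choice beyond their presence in the table.

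The cells were primary osteoblasts of 3-day-old C57BL/6 mice of 2 genotypes. The wild type (WT) cells were compared with cells of triple conditional knockout (TCKO) mice, which carried the Prx1-Cre transgene and were homozygous for floxed alleles of Tet1 (fl/fl), Tet2 (fl/fl) and Tet3 (fl/fl). The label of the WT group says only wild type. Prx1-Cre acts in limb bud mesenchyme and in part of the skull, so cells outside that lineage can keep the alleles, and the study took its osteoblasts from calvarial bone. The labels list 2 samples per genotype (4 in all) while a protocol text speaks of 3 repeats, and the values analysed here are 1 merged count per region and genotype. No comparison below therefore has a replicate check, no p-value is given, and a difference smaller or larger than the spread between animals cannot be told apart. Because the material was bulk, fewer cells with an open region and less opening per cell cannot be told apart either.

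TET enzymes oxidise 5-methylcytosine, the first step of active removal of DNA methylation, and in vertebrates that mark sits almost only on CpG dinucleotides. Most of the genome has lost CpG to the mutation of methylated cytosine, while CpG islands have kept it because they are held unmethylated. Islands are best known at promoters, but many lie inside or between genes, where they serve as starts of non-coding RNA, as imprinting control elements or as parts of enhancers of developmental genes.

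The WT table summed to 56898657 counts and the TCKO table to 34608167, so TCKO counts were multiplied by 1.64 before comparison. Of 10 osteoblast marker genes, all 10 had a region within 1 kb of a start, with summed counts of 11143 in WT and 7124 in TCKO (log2 ratio 0.07, or -0.05 without Prrx1; 6 of the 10 genes were below 0). The endothelial list had such a region for 6 of 10 genes (3200 and 2165 counts, 0.15), the list of macrophage or osteoclast genes for 5 of 10 (731 and 582 counts, 0.39), and the skeletal muscle list for 3 of 10 (4290 and 2201 counts, -0.25, or 0.60 without Mylpf). Open promoters of osteoblast genes thus outnumbered those of the other lists, and the part of other cells in the values below was not tested. Promoter regions of Tet1, Tet2 and Tet3 had log2 ratios of -0.03, -0.12 and -0.16, which says nothing on the deletion, since the floxed exons were not measured.

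The sequences of 8 regions show what the criteria select. In each line stands the 200 bp window with most CpG of its region, read from the GRCm38 reference genome on the + strand, 5′ to 3′, with every CpG in capitals. The first pair, named here by the nearest protein-coding gene, had the lowest count in TCKO relative to WT among printed regions. They held 9 and 11 CpG in the window.

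Sdk2, chr11:114152742-114152941: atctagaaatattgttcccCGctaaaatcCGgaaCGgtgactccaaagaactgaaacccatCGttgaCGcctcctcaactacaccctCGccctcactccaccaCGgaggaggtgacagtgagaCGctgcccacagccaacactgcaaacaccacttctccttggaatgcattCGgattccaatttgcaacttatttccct

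Fgfr2, chr7:130108378-130108577: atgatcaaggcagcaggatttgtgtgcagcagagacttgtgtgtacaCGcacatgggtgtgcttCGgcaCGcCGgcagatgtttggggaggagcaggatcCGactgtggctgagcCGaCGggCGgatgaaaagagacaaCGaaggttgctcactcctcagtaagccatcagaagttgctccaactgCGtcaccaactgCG

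The next 3 regions had more counts in TCKO after scaling, with 11, 20 and 16 CpG in the window. They lay in an intron of Reps1, in a stretch that resembles 18S ribosomal RNA (nearest protein-coding gene Samd9l) and at the start of the non-coding gene Mir670hg.

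Reps1, chr10:18077143-18077342: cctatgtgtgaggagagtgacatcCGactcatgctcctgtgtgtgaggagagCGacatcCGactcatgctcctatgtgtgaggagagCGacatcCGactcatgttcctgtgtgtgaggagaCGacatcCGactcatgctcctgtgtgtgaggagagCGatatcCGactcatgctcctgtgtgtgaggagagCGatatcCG

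Samd9l, chr6:3201359-3201558: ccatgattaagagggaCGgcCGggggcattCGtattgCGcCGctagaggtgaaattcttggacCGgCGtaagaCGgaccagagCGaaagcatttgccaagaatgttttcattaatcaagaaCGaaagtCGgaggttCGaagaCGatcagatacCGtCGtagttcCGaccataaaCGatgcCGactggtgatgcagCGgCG

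Mir670hg, chr2:94243162-94243361: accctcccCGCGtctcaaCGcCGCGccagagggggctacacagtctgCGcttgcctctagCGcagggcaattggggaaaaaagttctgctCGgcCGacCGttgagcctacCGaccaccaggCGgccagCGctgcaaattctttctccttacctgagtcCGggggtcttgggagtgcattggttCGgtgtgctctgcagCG

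The last 3, with 37, 18 and 23 CpG, stand for the start of a non-coding RNA and for imprinted loci. The start of 4932412D23Rik lies at the Zbtb20 locus, Peg13 is a non-coding RNA within an intron of Trappc9, and Rasgrf1 encodes an imprinted exchange factor for Ras.

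4932412D23Rik, chr16:42875977-42876176: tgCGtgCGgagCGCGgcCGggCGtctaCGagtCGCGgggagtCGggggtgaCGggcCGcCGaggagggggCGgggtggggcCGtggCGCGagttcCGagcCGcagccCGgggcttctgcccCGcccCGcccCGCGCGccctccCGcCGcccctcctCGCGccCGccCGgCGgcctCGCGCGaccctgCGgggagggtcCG

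Peg13, chr15:72809924-72810123: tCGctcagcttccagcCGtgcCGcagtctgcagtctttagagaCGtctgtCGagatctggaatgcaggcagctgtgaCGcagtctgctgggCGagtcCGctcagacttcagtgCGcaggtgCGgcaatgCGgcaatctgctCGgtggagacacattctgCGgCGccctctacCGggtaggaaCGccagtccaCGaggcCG

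Rasgrf1, chr9:89879673-89879872: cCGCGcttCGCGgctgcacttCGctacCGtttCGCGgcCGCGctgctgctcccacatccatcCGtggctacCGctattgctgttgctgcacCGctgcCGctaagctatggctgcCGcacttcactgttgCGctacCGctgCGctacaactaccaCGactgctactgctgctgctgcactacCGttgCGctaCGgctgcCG

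For contrast, an accessible region without dense CpG, 9.7 kb from the Fgfr2 region above, held 7 CpG in its densest window (chosen after its values were seen).

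CpG-poor region near the Fgfr2 region, chr7:130098793-130098992: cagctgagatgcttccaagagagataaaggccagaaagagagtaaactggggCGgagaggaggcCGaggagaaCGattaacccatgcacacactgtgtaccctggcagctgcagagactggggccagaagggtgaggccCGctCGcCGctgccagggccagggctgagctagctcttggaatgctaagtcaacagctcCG

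With both genotypes scaled to the same total count, the CpG-dense distal regions lay close to the level of the whole table. The median count was 282 in WT (quartiles 132.25 and 724.25) and 171 in TCKO (quartiles 83 and 428.75), and per 100 bp the median was 59.7 in WT and 59.4 in TCKO after scaling. The change between genotypes was expressed for each region as a log2 ratio, with 1 added to the WT count and to the scaled TCKO count before division. Its median over the 1498 regions was -0.037 (95% order-statistic interval over regions -0.052 to -0.017), and 816 regions, or 54.5%, were below 0. Scaling to the total sets the whole table equal between genotypes, and the median was -0.752 without scaling and -0.644 with the depth that the peak caller's background gave. The interval describes the spread over regions, which share the same merged libraries, and not the spread over animals.

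**Figure D1:**
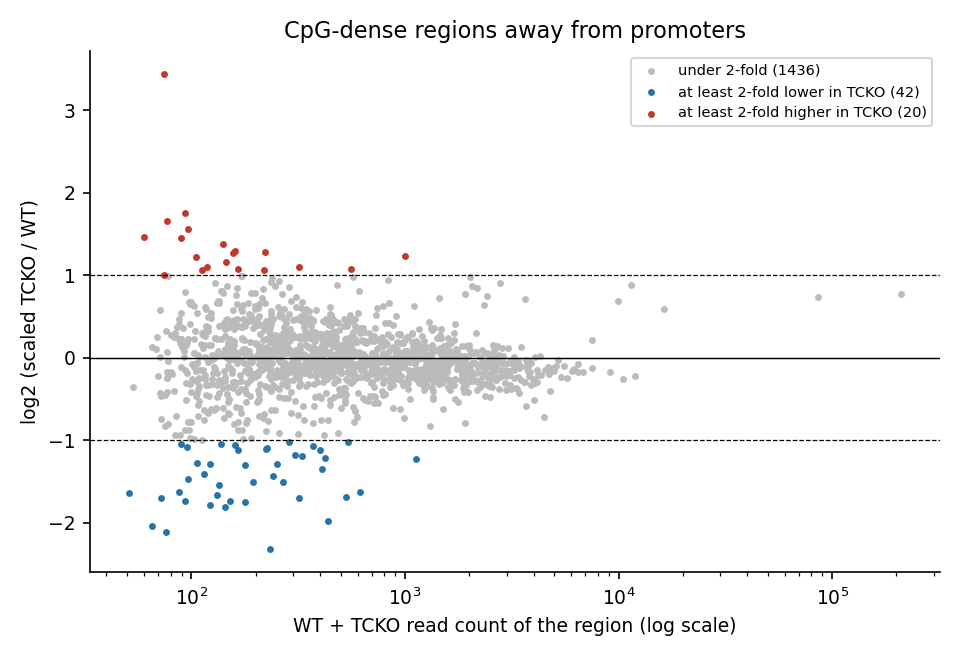
Each point is 1 of the 1498 CpG-dense distal regions, with its summed WT and TCKO count on the horizontal log axis and the log2 ratio of TCKO over WT after scaling on the vertical axis. The 42 regions at least 2-fold lower in TCKO (blue) and the 20 at least 2-fold higher (red) sit mostly at low counts, and the other 1436 (grey) spread around 0.

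By the 2-fold cutoff that the study used, 42 of the 1498 regions (2.80%, 95% Wilson interval 2.08 to 3.77) were lower in TCKO, against 4.51% of all regions of the table. Another 20 (1.34%, 0.866 to 2.05) were higher, against 12.3% of all regions. Wilson intervals of a percent treat regions as independent draws, while those of a ratio reflect the counting of reads alone, which PCR copies in libraries without molecular identifiers make too narrow. A peak summit in both genotypes was found for 10 of the 42 and 12 of the 20. The others came into the table through the genotype in which they were higher, so their number in each direction is a description of the table. The scatter of ratios by count shows that the called regions had few counts. Lower regions had a median of 147 counts in WT (43 to 890) and 34.5 in TCKO (8 to 231), and higher regions 52.5 in WT (9 to 409) and 75.5 in TCKO (38 to 586). The Wilson interval of the ratio lay wholly past the cutoff for 14 of the 42 and 4 of the 20.

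Both shares depend on the scaling between genotypes. When depth was taken from the background that the peak caller assigned to each library, the factor was 1.08 in place of 1.64, and 180 regions (12.0%) were lower and 3 (0.2%) higher, against 19.9% and 3.91% of all regions. All 42 regions called lower with the total count were called lower with this background too, as a smaller factor requires, while 3 of the 20 called higher stayed called. This scaling lowers every log2 ratio by about 0.61, so directions below hold for the total count scaling, and a ratio above 0 but under about 0.61 is below 0 with the background. Under either scaling a smaller percentage of CpG-dense distal regions than of all regions passed the cutoff in each direction.

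Compared with other classes of region, the CpG-dense distal regions varied less in ratio than other distal regions and more than promoters. The interquartile range of the log2 ratio was 0.403 for them, 0.715 for 38837 distal regions over the same GC limit that fell short of the CpG ratio (called CpG-poor here, with a median GC content of 52.8% against 59.9%), 0.868 for 83314 AT-rich distal regions and 0.236 for 11234 CpG-dense promoter regions. The medians were -0.037 for CpG-dense distal, -0.020 (-0.027 to -0.014) for CpG-poor distal and -0.092 (-0.095 to -0.088) for CpG-dense promoter regions. That of the AT-rich distal regions was above 0, at 0.101 (0.095 to 0.106). The cutoff was passed by 4.71% (lower) and 5.56% (higher) of the CpG-poor distal regions and by 8 and 25 of the promoters. Of the AT-rich distal regions 4.58% were lower and 10.9% higher. The curves of the 4 classes make the difference in width visible.

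**Figure D2:**
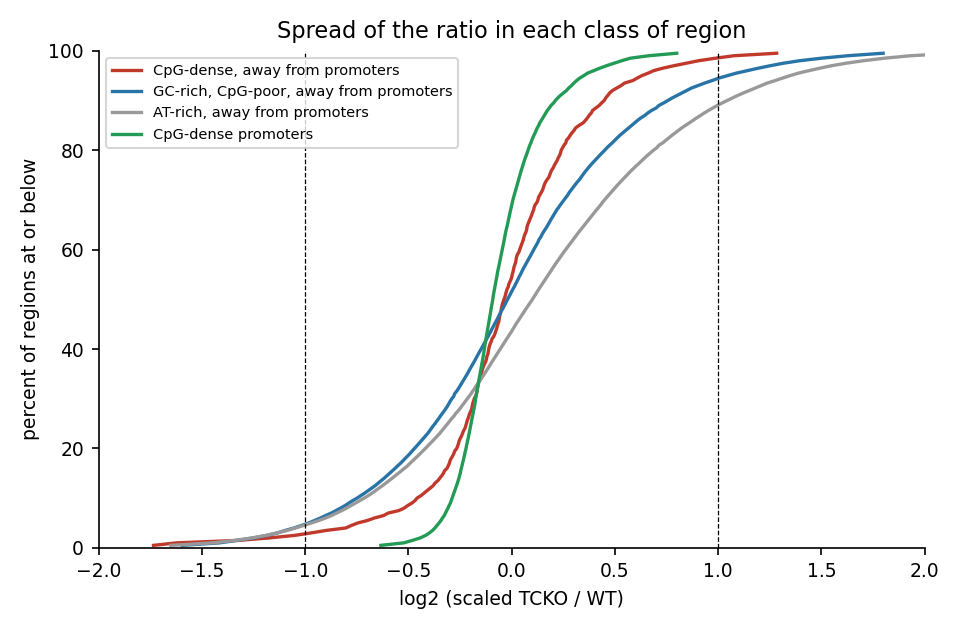
Cumulative percent of regions (vertical axis) at or below each log2 ratio of TCKO over WT (horizontal axis) for CpG-dense distal, CpG-poor distal, AT-rich distal and CpG-dense promoter regions, with dashed lines at the 2-fold cutoff. The CpG-dense distal curve is steeper than both other distal curves and less steep than that of the promoters, with 2.80% of regions left of the lower line and 1.34% right of the upper one.

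The classes also differed in depth, since promoters had a median of 897.5 counts in WT and CpG-poor distal regions 161. Within strata of the summed count the comparison could be made at like depth. Among CpG-dense distal regions of 50 to 99 counts, 9 were lower and 7 higher of 77, and among those of 200 up to 400 counts 12 and 3 of 343. At 50 to 99 counts the lower share was 11.7%, against 5.86% of CpG-poor distal and 4.66% of all regions. At 100 up to 200 counts it was 5.41%, against 4.41% and 3.97%. The order turned at 200 up to 400 counts, with 3.50% against 4.62% and 3.79%. The higher share was smaller in CpG-dense distal regions than in both other groups in each of these strata. With 1600 counts or more none of 244 passed the cutoff in either direction, while 3.09% of 1781 CpG-poor distal regions of that depth were lower. The median of these deepest regions was -0.129 for CpG-dense distal, -0.177 for CpG-poor distal and -0.141 for CpG-dense promoter regions, so all 3 classes lay below 0 at high counts. The plot by count stratum gives the medians and both shares for each class.

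The ratio followed CpG density along a curve rather than a line. Among all GC-rich distal regions the median log2 ratio was 0.168 in those with an observed/expected ratio under 0.1, went down to -0.145 at 0.4 to 0.5, just short of the CpG-dense range, and came back to -0.053 at 0.6 to 0.7, -0.049 at 0.7 to 0.8, -0.015 at 0.8 to 0.9 and 0.020 (-0.030 to 0.079) at 0.9 and above. The calls moved in the same way. The share of lower regions was 2.15% in the CpG-poorest bin and 8.76% at 0.4 to 0.5, and within the CpG-dense range it was 32 of 678 at 0.6 to 0.7, 7 of 412 at 0.7 to 0.8, 2 of 229 at 0.8 to 0.9 and 1 of 179 above. The regions with intermediate CpG density therefore held the largest share of lower regions among these bins. These shares include regions that had a summit in 1 genotype only, since 90 of the 254 lower regions at 0.4 to 0.5 had a summit in both. Among regions with a summit in both genotypes 4.22% were lower in that bin.

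**Figure D3:**
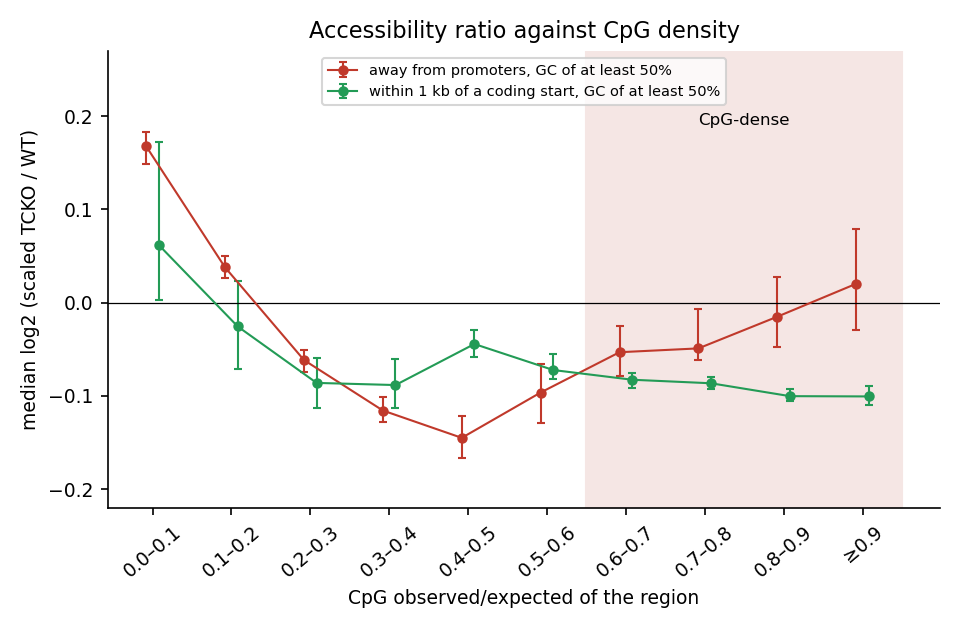
Median log2 ratio of TCKO over WT (vertical axis, with 95% order-statistic intervals over regions) by bins of the CpG observed/expected ratio (horizontal axis) for GC-rich distal regions (red) and promoter regions (green). The distal curve has its lowest point, -0.145, at 0.4 to 0.5 and returns to about 0 within the shaded CpG-dense range, while promoters stay near -0.1. GC content is not held fixed along the axis.

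A similar low point was seen in distal regions without the AP-1 letters TGANTCA anywhere in the region. Their medians were 0.078 in the CpG-poorest bin, -0.168 at 0.4 to 0.5 and 0.030 in the CpG-densest. Distal regions with these letters went from 0.414 in the CpG-poorest bin to -0.063 at 0.4 to 0.5, and had -0.073 (44 regions) at 0.7 to 0.8 and -0.139 (-0.245 to 0.257, 15 regions) in the densest, without a clear low point. Among distal regions with a summit in both genotypes, an alternative chosen after seeing the data, the medians were 0.260, -0.064 and 0.048, and 8 of 546 were lower at 0.6 to 0.7. Distal regions of 200 to 800 counts had medians of 0.144, -0.148 and 0.065 in the same 3 bins. With a loess trend over the mean count subtracted the values were 0.069, -0.178 and 0.0003. With the peak caller background they were -0.436, -0.750 and -0.587, where the low point stays by construction because every bin shifts almost alike. Regions within 1 kb of a protein-coding start did not follow this curve, with a median of 0.062 in the CpG-poorest bin and -0.101 in the densest. Across the limit of the rule the ratio changed little, with a median of -0.075 and 25 of 525 lower at an observed/expected ratio of 0.55 to 0.6, and -0.062 and 24 of 396 at 0.6 to 0.65. Across the GC limit it was -0.177 (20 of 169 lower) at 48 to 50% and -0.170 (21 of 171 lower) at 50 to 52%.

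GC content ordered the regions more strongly than the CpG ratio did. The median log2 ratio was -0.114 in the 402 regions with 50 to 55% GC, -0.055 in the 351 with 55 to 60%, 0.005 and 0.029 in the next pair of bins and 0.081 (-0.040 to 0.179) in the 117 with 70% or more. Of the 42 lower regions, 34 had less than 55% GC and 32 an observed/expected ratio under 0.7, and none of the 117 regions richest in GC was lower while 3 were higher. Over the 1498 regions Spearman's rho with the log2 ratio was 0.205 for GC content, 0.101 for the CpG ratio and -0.121 for the summed count. With the median of all regions in each of 20 bins of GC content removed, 44 of the regions were lower and 23 higher.

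Named regions were the 5 lowest and 5 highest ratios among the 914 regions that reached 200 counts in their deeper genotype. Since they were picked by the ratio, their values are a description. The lowest lay between genes, 86.7 kb from the nearest protein-coding start, that of Sdk2, which encodes a neuronal cell adhesion protein (chr11:114152742-114153112). It had 208 WT counts and 25 TCKO counts (log2 ratio -2.31, Wilson interval -2.93 to -1.74), and the peak caller placed a summit there in WT and none in TCKO. Its window is the first of the printed sequences.

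The region closest to skeletal biology among the lowest lay 153 kb from a start of Fgfr2, a fibroblast growth factor receptor whose mutations close skull sutures early (chr7:130108354-130108744). It had 268 counts in WT and 50 in TCKO (log2 ratio -1.69, -2.14 to -1.27). The fold enrichment over background at its summit was 6.44 in WT and 2.72 in TCKO. The CpG-poor neighbour printed above, 9.7 kb away, had 77 and 34 counts (-0.46, -1.04 to 0.12). Its interval did not overlap that of the Fgfr2 region, which was picked for its low ratio, so the contrast is a description.

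The other 3 lay in introns. The region in Ccdc3 (chr2:5199301-5199693) had 378 counts in WT and 58 in TCKO (-1.98, -2.38 to -1.59). The region in Lima1, which encodes an actin-binding LIM protein (chr15:99814668-99815123), had 445 and 84 (-1.68, -2.02 to -1.35). The region in Kif6, a kinesin gene (chr17:49756857-49757358), had 514 and 101 (-1.62, -1.94 to -1.32). All 5 had GC contents of 50.9 to 52.9%, near the lower limit of the rule, and the regions in Ccdc3 and Lima1 had no summit in TCKO. Like that near Sdk2 they came into the table through WT, so their direction is no result.

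Among the highest, the region in an intron of Reps1, an adaptor of endocytosis (chr10:18076939-18077456), had 409 counts in WT and 586 in TCKO (log2 ratio 1.23, 1.05 to 1.42). The region at the start of Mir670hg, the host transcript of a microRNA (chr2:94243156-94243912), had 246 and 315 (1.07, 0.83 to 1.31). The other 3 stayed just under the cutoff. A region 44.6 kb from Chrm3, a muscarinic acetylcholine receptor gene, had 258 and 310 counts (0.98). It lay 108 bp from the start of the non-coding gene Gm24187 and was 1 of 3 CpG-dense distal regions that shared sequence. The 18S-like region nearest to Samd9l (chr6:3201357-3201598) had 915 and 1096 (0.98, 0.85 to 1.10), and a region 7.87 kb from the zinc finger gene Zfp184 had 384 and 448 (0.94). These 5 had more counts in TCKO even before scaling, and with the peak caller background the log2 ratios were 0.63, 0.46, 0.37, 0.37 and 0.33, so none of the 5 passed 2-fold there.

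**Figure D4:**
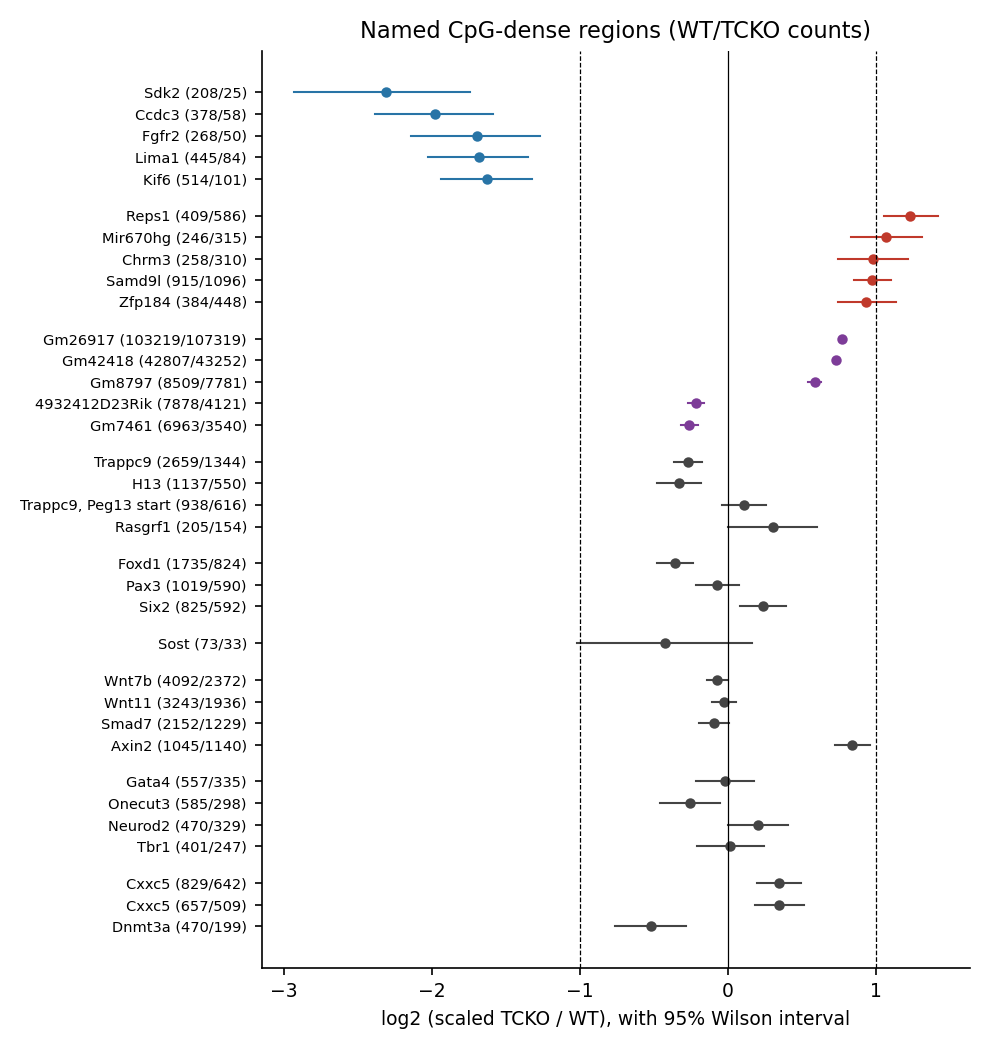
Log2 ratio of TCKO over WT (horizontal axis) with its 95% Wilson interval for counting error, for named CpG-dense distal regions, each labelled by gene and by its WT and TCKO counts (blue lowest, red highest, purple most WT counts, grey from the gene lists; dashed lines at 2-fold). The regions at Sdk2, Ccdc3, Fgfr2, Lima1 and Kif6 lie left of -1.5, and most others within 0.5 of 0.

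A further 3 of the 42 lower regions are named here after their values were seen. A region 54.4 kb from Irx3, a homeobox gene of limb bud patterning, had 336 counts in WT and 88 in TCKO (log2 ratio -1.21, -1.55 to -0.88). A region in an intron of Zfp423, a cofactor in BMP signalling and fat precursor identity, had 242 and 65 (-1.17, -1.57 to -0.79), with no summit in TCKO. A region 6.02 kb from Rcn3, a chaperone of the secretory path, was the deepest of the lower regions, with 890 and 231 counts (-1.23, -1.44 to -1.02). In all, 19 of the 42 lower regions lay between genes and 15 in introns, at a median distance of 54.2 kb from a protein-coding start.

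The regions with most WT counts stood apart from the rest. A pair on chromosome 17, chr17:39843033-39847350 in the non-coding gene Gm26917 and chr17:39847485-39848786 in Gm42418, had 103219 and 42807 counts in WT and 107319 and 43252 in TCKO (log2 ratios 0.77 and 0.73). RefSeq annotates the 18S ribosomal RNA related gene Rn18s-rs5 across both (chr17:39846354-39848202). The region nearest to Samd9l matched the same gene at 96.7% over all of its 242 bp, a stretch that spans the 134 bp between the pair. The study kept uniquely mapping reads, and reads of ribosomal RNA gene copies that the assembly lacks cannot be told apart from reads of these places. The pair held 14.6% of all counts of CpG-dense distal regions in WT and 23.1% in TCKO. The summed log2 ratio of all CpG-dense distal regions was 0.10 with these 3 regions and -0.05 without them, while the median was -0.037 with and -0.039 without them.

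The third by WT counts, 110 kb from Gm8797 (chr3:5860341-5860820), had 8509 counts in WT and 7781 in TCKO (0.59), and the remaining pair of the 5 deepest were in non-coding genes. The region at the start of 4932412D23Rik (chr16:42874849-42876429), 32 kb from a start of the zinc finger repressor gene Zbtb20, had 7878 and 4121 (-0.22), and that at Gm7461 (chr8:4677281-4679116) had 6963 and 3540 (-0.26). Over the 427 regions with 1000 counts or more the median was -0.106 (-0.132 to -0.079), with 1 region lower by the cutoff and 0 higher. Set apart from this majority, 15 of the 427 had a ratio of 0.5 or more (0.588 to 0.977). Before scaling the log2 ratios of these 15 lay between -0.129 and 0.260, so their raw counts were near equal in both genotypes, and with the peak caller background they lay between -0.021 and 0.368. Of these 15 regions, 6 shared sequence with another CpG-dense distal region and 7 had an observed/expected ratio of 0.95 or more, against 27 of all 427.

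Position among genes gave small differences in ratio. Between genes lay 728 of the regions, 260 in introns, 228 in non-coding genes, 167 on coding exons, 67 on other exons and 48 in pseudogenes. The coding exons were 11.1% of CpG-dense against 1.90% of CpG-poor distal regions, and their median was 0.023. Introns had a median of -0.057, with 15 of 260 lower, and regions between genes -0.046, with 19 lower and 6 higher. A start of a non-coding gene within 1 kb was found for 264 regions (17.6%, against 3.55% of CpG-poor distal regions). These 264 had a median of 668 counts in WT and a median ratio of -0.068, with 2 lower and 1 higher, while the other 1234 had a median of -0.026.

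The distance to the nearest protein-coding start had a median of 26.7 kb. At 5 to 10 kb 3 of 347 regions were lower (median -0.002), and at 50 to 100 kb 15 of 261 (median -0.056). Most regions stood alone, since after joining those within 1 kb the 1498 regions made 1442 islands, 50 of which held 2 or more. Of the 176 regions of 1 kb or more 0 passed the cutoff in either direction (median -0.103), while 17 of 336 regions of 200 to 300 bp were lower and 14 higher (median 0.008). The X chromosome held 54 of the regions, with a median of -0.103.

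Developmental transcription factor genes, which often carry several CpG islands, held the most CpG-dense distal regions among the gene lists used. Transcription factors of limb and skull patterning had 64 such regions at 39 of 126 genes, with a median log2 ratio of -0.023 (-0.061 to 0.067). By the cutoff 2 were lower and 0 higher, beside 2.80% and 1.34% of the whole class. The one at Irx3 is given above, and the other, in an intron of Tshz2, had 111 counts in WT and 21 in TCKO (-1.66, -2.35 to -1.02; chosen after its values were seen). The Tshz2 region had no summit in TCKO. Among the deepest were regions 37.0 kb from Foxd1 with 1735 and 824 counts (-0.36), 18.9 kb from Pax3 with 1019 and 590 (-0.07) and 112 kb from Six2 with 825 and 592 (0.24). The interval of the Foxd1 region lay below 0 (-0.48 to -0.24) and that of the Six2 region above it (0.09 to 0.39), though with the peak caller background both were below 0 (-0.97 and -0.37). Of the 64 regions 8 had an interval wholly below 0 and 7 wholly above. In the whole class these shares were 24.8% and 16.9%, and among all regions 18.9% and 29.5%.

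Several of these genes carried more than 1 CpG-dense distal region, and neighbours at 1 gene could differ. The regions named here and in the next sentences were chosen after their values were seen. Hand2, which patterns the limb bud from back to front, had 3 regions, with 559 counts in WT and 316 in TCKO 7.79 kb from its start (-0.11), 95 and 80 at 13.2 kb (0.47) and 83 and 61 farther away (0.27). Barx1, a homeobox gene of joints and face, had 5 regions of 66 to 96 counts in WT and 45 to 62 in TCKO. Their ratios lay between 0.09 and 0.34, and the interval of each held 0. Meis2, a homeobox gene of the proximal limb, had 4, with ratios from -0.04 to 0.26.

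Outside the cutoff, intervals wholly below 0 were found near Tbx4, the T-box gene of the hindlimb, with 420 and 163 counts (-0.65, -0.91 to -0.39), near Twist2 with 123 and 47 (-0.66, -1.15 to -0.19), on a coding exon of Lhx2, a LIM homeobox gene, with 339 and 151 (-0.45, -0.73 to -0.17), and in an intron of the neural crest gene Tfap2a with 768 and 395 (-0.24, -0.42 to -0.07). Intervals wholly above 0 were found near Tshz3 with 93 and 98 counts (0.79, 0.38 to 1.20) and 20.2 kb from Tbx3 with 138 and 120 (0.51, 0.16 to 0.87), which with the peak caller background were at 0.18 and -0.09. WT counts were 123 to 768 for the regions below 0 among these, and 93 and 138 for the pair above.

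Transcription factors best known from neural and endodermal lineages had 48 regions at 37 of 110 genes and a median of 0.067 (0.018 to 0.199), or -0.537 with the peak caller background. None was lower and 2 were higher, beside 2.80% and 1.34% of the whole class and 4.51% and 12.3% of all regions. Both were chosen after their values were seen, near Nkx2-2 with 72 and 93 counts (1.08) and near Fezf1 with 33 and 56 counts (1.45). Neither of these had a summit in WT. The deepest were within Gata4 with 557 and 335 counts (-0.02), 19.5 kb from Onecut3 with 585 and 298 (-0.26), 35.0 kb from Neurod2 with 470 and 329 (0.20, or -0.41 with the peak caller background) and on an exon of Tbr1 with 401 and 247 (0.02). CpG-poor distal regions of the same genes had a median of 0.181 and their promoters 0.245, so CpG-dense distal regions had the lowest median of the 3 kinds. With the peak caller background the values were -0.420 and -0.359. The order is then the same by construction, since this scaling shifts all ratios almost alike.

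Signalling genes of skeletal development had 30 regions at 26 of 110 genes, with a median of -0.031 (-0.220 to 0.137). By the cutoff 1 was lower and 2 higher, beside 2.80% and 1.34% of the whole class. The lower one is that near Fgfr2, and the higher ones lay 187 kb and 114 kb from Fgf9, a growth factor of bone and cartilage, with 33 and 41 counts (1.01) and 49 and 63 counts (1.06; chosen after their values were seen). The deepest regions of the list, named for their depth, included some near WNT ligand genes. That 52.3 kb from Wnt7b had 4092 counts in WT and 2372 in TCKO (-0.07), and that 19.3 kb from Wnt11 had 3243 and 1936 (-0.03), or -0.68 and -0.64 with the peak caller background. Near Smad7, an inhibitor of TGF-β signalling, 2152 and 1229 counts were found (-0.09). A region 88.6 kb from Axin2, a feedback inhibitor of WNT signalling, stood out with 1045 and 1140 counts (0.84, 0.72 to 0.96), and with the peak caller background its log2 ratio was 0.23. CpG-poor distal regions of the list had a median of -0.160 over 749 regions.

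Of the 30 signalling regions, 8 had an interval wholly below 0 and 6 wholly above, beside 24.8% and 16.9% of the whole class. Among all regions the shares were 18.9% and 29.5%. Members of the Notch pathway lay on both sides, and are given after their values were seen. The region in an intron of the Notch effector gene Heyl had 1079 counts in WT and 427 in TCKO (-0.62, -0.78 to -0.46), and one 226 kb from the effector gene Hes1 had 507 and 210 (-0.55, -0.79 to -0.32). A region 12.2 kb from Dll4, a Notch ligand gene, had 357 and 278 counts (0.36, 0.13 to 0.58), and one 37.4 kb from the receptor gene Notch3 had 130 and 135 (0.77, 0.43 to 1.12). With the peak caller background the Dll4 region was below 0 and the Notch3 region above it. Near Inhba, which encodes a subunit of activins, 1112 and 515 counts were found (-0.39, -0.54 to -0.24), and on a coding exon of Gdf6, a BMP family gene of joints and skull sutures, 583 and 283 (-0.32, -0.53 to -0.12).

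Imprinted genes had 11 regions at 9 of 51 genes, with a median of -0.267 (-0.611 to 0.298). By the cutoff 1 was lower and 0 higher, beside 2.80% and 1.34% of the whole class. The lower one, 178 kb from Zfp64, had 130 and 36 counts (-1.12, -1.66 to -0.61; chosen after its values were seen) and no summit in TCKO. A region 6.55 kb from the Trappc9 start (chr15:73067283-73068228) had 2659 and 1344 counts (-0.27, -0.36 to -0.17), while the region at Peg13 inside the same gene (chr15:72809694-72811010) had 938 and 616 (0.11, -0.04 to 0.26), or -0.50 with the peak caller background. The region in H13, the host gene of the imprinted Mcts2, had 1137 and 550 counts (-0.33, -0.48 to -0.18). The region 30.1 kb from Rasgrf1 (chr9:89879581-89880007) had 205 and 154 counts (0.30, 0.004 to 0.61), and -0.30 with the peak caller background. Of the 11 regions 8 were below 0 with the total count scaling, beside 54.5% of the whole class, so the list held both directions there.

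Genes of osteoblasts and the bone matrix had almost no CpG-dense distal regions. Of 52 genes of that list only Sost, an inhibitor of WNT signalling made by osteocytes, had 1. The Sost region had 73 counts in WT and 33 in TCKO (-0.42, -1.02 to 0.16). It had no summit in TCKO, so its direction is no result. The list had 191 CpG-poor distal regions with a median of -0.154. Writers and erasers of DNA methylation had 3 regions at 2 of 22 genes. The region 14.5 kb from Dnmt3a, a de novo DNA methyltransferase, had 470 and 199 counts (-0.52, -0.76 to -0.28). The regions 34.7 kb and 33.4 kb from Cxxc5, which encodes a CXXC-domain protein, had 829 and 642 and 657 and 509 counts, with ratios of 0.35 each, or -0.26 each with the peak caller background.

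Motifs were searched on both strands of the central 200 bp of each region. None of the motifs given in letters holds another. The GC box GGGCGG, bound by SP and KLF factors, was in 39.9% of them, 8.08% of CpG-poor distal, 56.8% of CpG-dense promoter and 7.28% of all regions. The ETS letters CCGGAAG were in 5.21%, 1.75%, 10.2% and 1.51%, and the NRF1 letters GCATGCGC in 2.40%, 0.425%, 2.44% and 0.402%. These motifs hold a CpG themselves, so the rule favoured them. Of the motifs without CpG, those of AP-1, RUNX and TEAD were rarer than in other distal regions. GC content was not matched, with a median of 59.9% against 52.8% in CpG-poor distal regions, so its part in these rates was not tested. The AP-1 letters TGANTCA were in 5.41% of CpG-dense distal, 20.5% of CpG-poor distal and 23.6% of all regions, and the letters TGTGGTT read by RUNX factors, which direct osteoblast differentiation, in 2.07%, 7.21% and 8.72%. The TEAD letters GGAATG were in 8.81%, 16.3% and 16.3%, while the E-box CACGTG, which holds a CpG, was in 7.28%, 4.25% and 3.44%. The CTCF motif was about as frequent as in CpG-poor distal regions, at 3.27% and 2.90%, with 0.81% of CpG-dense promoters and 1.92% of all regions. The YY1 letters AAGATGGC were in 1.87% of CpG-dense distal and 1.14% of all regions.

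Regions with a motif were set beside those without it. The 81 regions with AP-1 letters had a median of 0.063 (-0.051 to 0.205) and the others -0.042, where CpG-poor distal regions had 0.240 with and -0.078 without. The 31 regions with RUNX letters had a median of -0.151 (-0.254 to 0.002), with 3 lower (9.68%), and the others -0.035, with 2.66% lower. CpG-poor distal regions had -0.073 with these letters (5.75% lower) and -0.016 without (4.63% lower). The 49 regions with CTCF had -0.031 (-0.118 to 0.067) and no call, and the 78 with ETS letters -0.112 (-0.179 to -0.047) and no call. The 597 with a GC box had -0.059, with 7 lower (1.17%) and 3 higher (0.503%). Those without a GC box had -0.017, with 3.88% lower and 1.89% higher. A match of letters is not a bound site, and none of these differences has a replicate behind it.

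The deposited peak lists, 1 per genotype and called on merged samples, gave a second view. A summit in both lists lay in 1252 of the CpG-dense distal regions (83.6%, Wilson interval 81.6 to 85.4), against 76.0% of CpG-poor distal, 96.2% of CpG-dense promoter and 56.8% of all regions. A summit in WT alone was found in 236 regions (15.8%), which had medians of 89 and 44 counts, and in TCKO alone in 10 (0.668%). These shares were 33.0% and 10.2% of all regions, and 21.9% and 2.07% of CpG-poor distal regions. A region with a summit in 1 genotype came into the table through it, so its direction is no result. Among the 1252, the median log2 ratio was -0.009 (-0.030 to 0.009), with 10 lower (0.799%) and 12 higher (0.959%). CpG-poor distal regions with summits in both lists were lower in 2.29% and higher in 5.05%, and all such regions in 1.40% and 7.77%. Since a region low in 1 genotype is less likely to have a summit there, this choice depends on the change itself, and these counts hold for the total count scaling. The fold enrichment at the summit had a median of 6.53 in WT and 5.46 in TCKO. Taken region by region its median log2 ratio was -0.196, close to the -0.189 of all regions with summits in both.

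Shared sequence limits what can be said of single places. Matches of at least 80% over 100 bp or more joined 129 of the regions into 30 families, whose ratios had a median of 0.002 with 2 lower and 0 higher, while the 1369 without such a match had -0.041 with 40 lower and 20 higher. The largest family had 23 regions on chromosome 12, with ratios between -0.547 and 0.533 and a median of 0.008. A second, of 15 regions on 9 chromosomes and 92.2% soft-masked as repeats, had a median of -0.386 and held the 2 lower ones, the lower end being -2.11. Tandem repeats made up 3 regions by self-comparison (at least 70% identity at the repeat period). They were that in Reps1, one in an intron of Fam19a2 with 9 and 65 counts (3.43, 2.58 to 4.56), which had the highest ratio of all 1498, and one near Nrip1 with 71 and 25 (-0.77, -1.44 to -0.14). As the study kept uniquely mapping reads, reads that fitted more than 1 place equally well should be missing from these counts.

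Neighbouring regions with and without dense CpG were compared over 1205 pairs, each CpG-dense distal region with its nearest CpG-poor distal region within 50 kb, at a median distance of 9248 bp. The CpG-dense one had a median ratio of -0.046 and its neighbour 0.020, with a median difference of -0.046 (-0.078 to 0.002), and was the higher of the 2 in 568 pairs. By the cutoff 36 of the CpG-dense ones were lower and 14 higher, against 37 and 54 of their neighbours. At the same loci the lower calls were thus equal in number within 1, and the higher calls were fewer at the CpG-dense regions.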

How the data were processed

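ATAC-seq of primary osteoblasts was analysed from the files the authors deposited. The authors aligned reads to GRCm38 with STAR 2.7.0e, kept uniquely mapping reads and called peaks with MACS2. The labels also name CASAVA. The deposited table holds raw counts per region in 1 merged column per genotype, and 0 further sample columns were present. The deposited MACS2 lists hold summits with fold enrichment (a ratio to background) and −log10 p-value and q-value. GC and CpG were taken from GRCm38 and starts from GENCODE M21. TCKO counts were scaled to the WT total, 1 was added, and a 2-fold cutoff was applied to this ratio. The study used a cutoff of the same size on the relative enrichment of peaks. With merged columns no test was possible. Intervals are 95% Wilson or order-statistic intervals (Python 3.11.15, scipy 1.17.1). Alternatives used edgeR 4.0.16 and DESeq2 1.42.0 factors in R 4.3.3, and sequence was compared with blastn 2.17.0. The scripts were tested on simulated data. Members and gene lists were chosen with earlier results of these data known. Named were the 5 lowest and 5 highest ratios with at least 200 counts in the deeper genotype, the 5 regions with most WT counts, and up to 4 per gene list by summed counts. Background depth was solved from the deposited fold and −log10 p of each summit, taking the lowest background per base of each list. Reads and single samples were not analysed here. The result of 1 named region is not reported here.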

Additional observations from a re-analysis of the deposited data

How the results depend on the processing

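No paired analysis was possible because each genotype had a single merged column, and for the same reason no replicate could be left out. As reported, 42 regions were lower, 20 higher, the median was -0.037, its difference from CpG-poor distal regions -0.018 and from promoters 0.054. Without scaling 280 were lower and 2 higher (median -0.752), and with the peak caller background 180 and 3 (-0.644), by construction of a smaller factor. The median was -0.113 with TMM, -0.102 with DESeq2 factors, -0.0144 with loess, -0.0140 with GC-bin medians removed and -0.196 from fold enrichments at summits. Against CpG-poor distal regions the difference changed sign to 0.058 with loess, 0.015 with GC bins, 0.0032 with an observed/expected ratio of at least 0.75 and 0.087 with the strictest definition (GC 55%, 0.65 and 500 bp), and was -0.058 with criteria on the central 200 bp. Against promoters it was -0.034 with loess, 0.081 with the ratio of 0.75 and 0.021 with the central 200 bp, and the cause was not tested. The ratio of 0.75 left 4 lower and 5 higher (median -0.0164), the strictest definition 1 and 0, and the central 200 bp gave 105 lower (median -0.071). A fold of 1.5 gave 107 lower and 91 higher, a fold of 3 gave 16 and 3, and intervals wholly past the cutoff 14 and 4. Of peaks with −log10 q of at least 10, both lists had a summit in 673 regions rather than 1252. Chosen after seeing the data, regions with a summit in both lists gave 10 lower, 12 higher and a median of -0.0093, while leaving out regions of shared sequence or the chromosome 17 pair moved none of these results past its limit. Among 35 named regions, the 7 past 2-fold kept their direction under all 7 settings tried on them, of which unscaled counts and the peak caller background each left 2 under 2-fold and TMM 1. Of the 28 others, 8 changed sign with loess, 8 without scaling and 8 under the peak caller background. Over whole regions rather than the central 200 bp, the AP-1 letters were in 12.8% of CpG-dense and 31.0% of CpG-poor distal regions.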
